A study of Mus musculus with 6 samples.

Results

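The genes described here are 32 mouse genes of the unfolded protein response and the integrated stress response. They were taken from the deposited gene count table by their symbols, by a rule that sets no threshold on a measured value. All 32 were among the 55401 genes of the table and among the 19554 genes with enough counts to be tested. For comparison they were placed in 4 roles, namely 14 chaperones and folding factors, 7 genes of degradation and translocation, 4 genes of the sensors and Xbp1, and 7 genes of the Atf4 and Ddit3 arm.

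RNA was measured in microglia, the resident macrophages of the brain, from MRL/lpr mice and from MRL/mpj mice, with 3 libraries per strain. The mutation lpr inactivates Fas, a death receptor of lymphocytes, and MRL/lpr mice develop lupus-like autoimmunity, and MRL/mpj mice are the matched strain without that mutation. Mice of both strains were untreated and 6 weeks old. The study names female mice, which the counts of Y chromosome genes given below do not bear out. Cells were dissociated from perfused brain by warm enzymatic digestion, enriched on a Percoll gradient and selected with magnetic beads for CD11b, which other myeloid cells also carry. The labels describe total RNA depleted of ribosomal RNA, whereas the study's methods describe purified mRNA. The study describes 3 mice per strain for the expression data, and the labels do not say whether a library held 1 animal or several, so that p-values measure the spread between these libraries.

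The unfolded protein response is the reaction of a cell to misfolded protein in the endoplasmic reticulum (ER), the compartment where secreted and membrane proteins are folded. Its sensors Ern1 (IRE1), Eif2ak3 (PERK) and Atf6 raise chaperones and degradation factors through the transcription factors Xbp1 and Atf6. PERK also phosphorylates the initiation factor eIF2, which lowers general protein synthesis while translation of Atf4 rises. Other kinases act on eIF2 in response to amino acid shortage, viral RNA or haem shortage, and the shared output, led by Atf4 and Ddit3 (CHOP), is called the integrated stress response. Much of this control acts on splicing of Xbp1 RNA, cleavage of Atf6 protein and translation of Atf4, none of which a count of gene reads measures. In macrophages, the pathway is best known for its link to secretion and to inflammatory activation.

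The promoters of these genes differ in the short sequences that the transcription factors recognise, and a few are shown so that the expression values can be read beside them. The ER stress response element (ERSE) has the letters CCAAT and CCACG with 9 unspecified bases between them, and its shorter form ERSE-II has ATTGG and CCACG with 1 base between. The amino acid and stress response element bound by Atf4 complexes (CARE) was searched as TGATGNAA, and the core of the unfolded protein response element as TGACGTGG. Each was searched on both strands from 250 bases before to 50 bases after the transcription start in the RefSeq promoter table. The stretches below are the 215 bases before the start, 5′ to 3′ on the strand of the gene, of the C57BL/6J reference genome (RefSeq, GRCm38.p6) and not of the MRL strains. Capitals mark the specified letters of an ERSE, ERSE-II or CARE match. Hspa5, Canx and Herpud1 are shown because their counts differed between the strains, Hsp90b1 because it holds a pair of ERSE matches but was not called, and Atf4 and Chac1 as members of the other arm.
Hspa5 (chr2:34771875-34772089, plus strand): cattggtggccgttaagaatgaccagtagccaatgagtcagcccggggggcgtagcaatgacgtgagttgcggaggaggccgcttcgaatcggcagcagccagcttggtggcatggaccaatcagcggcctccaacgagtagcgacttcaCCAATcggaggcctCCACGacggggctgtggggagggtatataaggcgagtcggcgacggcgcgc
Hsp90b1 (chr10:86705445-86705659, minus strand): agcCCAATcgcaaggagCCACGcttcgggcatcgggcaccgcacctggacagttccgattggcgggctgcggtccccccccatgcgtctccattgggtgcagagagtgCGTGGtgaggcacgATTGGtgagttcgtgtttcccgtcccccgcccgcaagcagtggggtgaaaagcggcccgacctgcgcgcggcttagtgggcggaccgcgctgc
Canx (chr11:50325674-50325888, minus strand): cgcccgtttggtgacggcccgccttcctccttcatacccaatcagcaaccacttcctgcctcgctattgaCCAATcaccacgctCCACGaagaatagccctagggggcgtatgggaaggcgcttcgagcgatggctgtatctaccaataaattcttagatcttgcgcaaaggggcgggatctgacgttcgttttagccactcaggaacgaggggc
Herpud1 (chr8:94386214-94386428, plus strand): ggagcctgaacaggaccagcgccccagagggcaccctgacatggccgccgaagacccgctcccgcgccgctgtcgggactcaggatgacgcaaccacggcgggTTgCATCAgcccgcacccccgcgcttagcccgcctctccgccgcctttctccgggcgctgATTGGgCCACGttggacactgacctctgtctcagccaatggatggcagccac
Atf4 (chr15:80254969-80255183, plus strand): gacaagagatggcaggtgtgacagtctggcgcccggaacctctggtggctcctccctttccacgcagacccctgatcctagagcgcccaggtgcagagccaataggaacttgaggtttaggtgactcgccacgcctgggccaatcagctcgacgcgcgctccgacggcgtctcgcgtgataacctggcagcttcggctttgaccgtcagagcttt
Chac1 (chr2:119351027-119351241, plus strand): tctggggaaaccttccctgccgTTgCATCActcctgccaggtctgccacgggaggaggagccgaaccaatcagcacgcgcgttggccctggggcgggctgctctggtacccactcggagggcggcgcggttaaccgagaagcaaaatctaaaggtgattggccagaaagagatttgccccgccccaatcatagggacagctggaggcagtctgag

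Only exact matches were counted, so elements that differ in a letter were missed and the numbers per promoter are not full counts. The exact ERSE match of Hspa5 lay at -65 to -47 relative to the start and that of Canx at -145 to -127. Hsp90b1 held one ERSE at -212 to -194 and another on the opposite strand at -107 to -89. Herpud1 held an ERSE-II at -52 to -42 and a CARE at -112 to -105, and Chac1 held a CARE at -193 to -186. The Atf4 stretch held none of the motifs searched. The promoter table had 28 of the 32 genes, and Manf, Hyou1, Derl1 and Atf6 were not in it. An ERSE was present in 9 of these 28 genes (32.1%), against 0.137% of the 27025 genes in the table. Of those 9, 7 were chaperones (of 12 with a promoter), namely Hspa5, Hsp90b1, Calr, Canx, Pdia6, Dnajc3 and Creld2, and the other two were the degradation genes Derl3 and Syvn1. No sensor and no gene of the Atf4 arm held one. ERSE-II was found in Herpud1 and Dnajb11 (7.14%, against 0.0444% of all genes). CARE was found in Chac1, Trib3, Asns and Herpud1 (14.3%, against 4.51% of all genes), and the TGACGTGG core in 0 of 28, against 0.714% of all genes. These matches describe letters in a window and show no binding. The motifs are textbook forms and the genes were listed as members of these responses. The shares beside those of all genes are therefore description and test nothing.

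Libraries held 45481609 to 48199739 counts in MRL/lpr and 47826322 to 49846634 in MRL/mpj. The 32 genes together took between 0.9968% and 1.254% of the counts of a library. MRL/lpr 3 stood apart, with 6.38% of its counts in the single gene CT010467.1, against 0.169% to 0.457% in the other libraries, and the pairs of MRL/lpr libraries that include it differed more than the other pair. Results are therefore also given without it. Mitochondrial genes took 3.06% to 3.49% of counts in MRL/lpr and 5.84% to 6.38% in MRL/mpj. Xist, the transcript of the inactive X chromosome, had 8886 to 11319 counts in MRL/lpr and 27 to 38 in MRL/mpj, while genes of the Y chromosome had 8408 to 15046 counts in all libraries. Sex and strain therefore cannot be told apart in these libraries. The Y counts in all libraries are at odds with the female mice that the study names. Each MRL/lpr library held both Xist and Y transcripts, and whether it held animals of both sexes was not tested. Levels are given as CPM, the count scaled to a common library size after correction by the trimmed mean of M values (TMM). The 16 microglial markers summed to between 28654 and 32833 CPM in MRL/lpr and between 34607 and 35606 in MRL/mpj.

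Of the 32 genes, 3 were higher in MRL/lpr (Hspa5, Herpud1 and Atf4) and 2 were lower (Canx and Sec61b) at an adjusted p under 0.05 by edgeR's quasi-likelihood test over all genes tested. These 5 are 15.6% of the list, against 20.2% of all 19554 genes, of which 11.1% were higher and 9.06% lower. With MRL/lpr 3 left out the shares were 31.2% of the list and 21.2% of all genes, so the order of list and background turned. By DESeq2 the shares were 21.9% and 14.2%. The DESeq2 background held every gene with a count, a larger set than the 19554 genes. The DESeq2 shares therefore cannot decide the order. The study's rule also asks for a log2 fold change of 1 or more in either direction, and 8.34% of all genes met it. None of the 32 did by edgeR, by DESeq2 or at an unadjusted p under 0.05. The libraries of the strains did not overlap in CPM for 12 of the 32 genes, against 39% of all genes. Because cells were measured in bulk, a higher count may come from more cells of a type or from more RNA per cell, and these cannot be told apart.

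**Figure D1:**
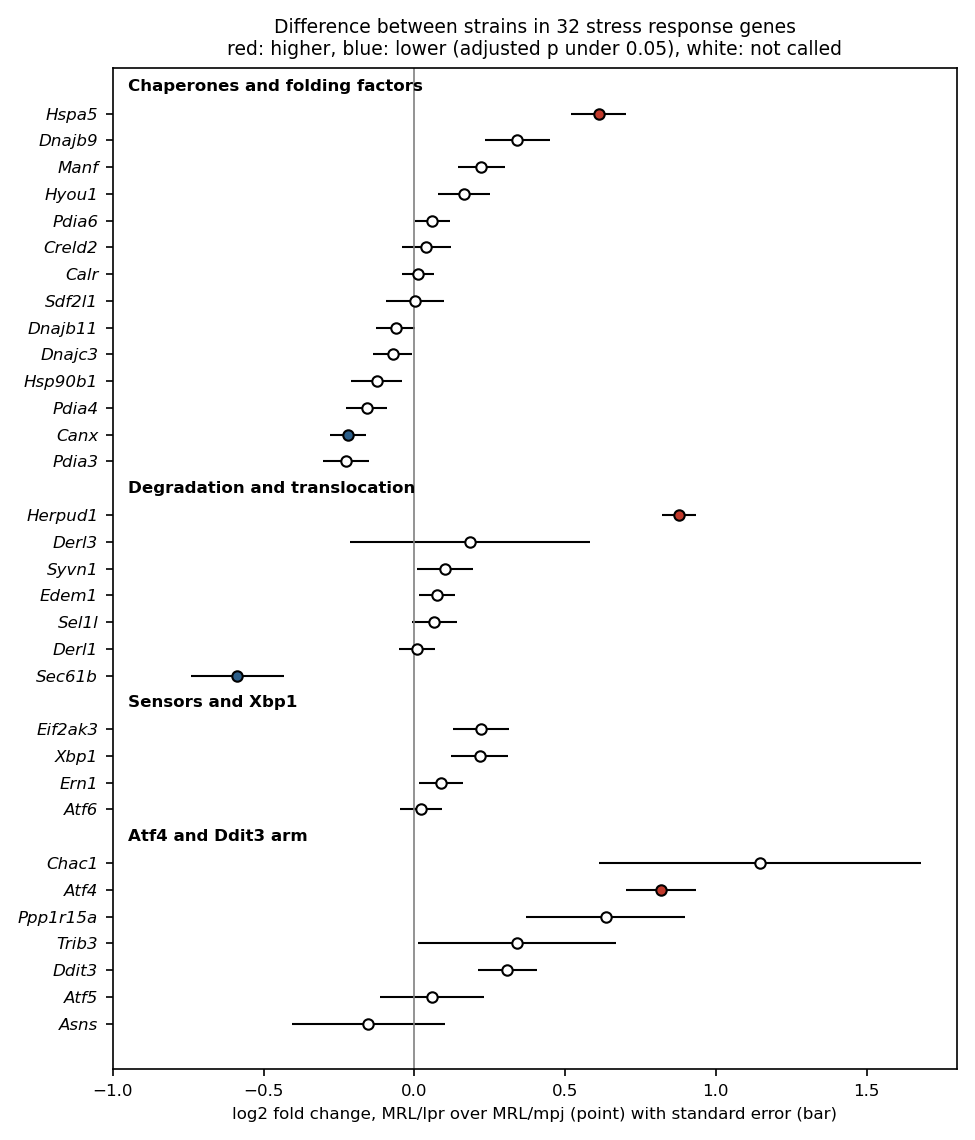
Log2 fold change of the 32 genes (x axis, MRL/lpr over MRL/mpj, with the standard error as a bar), grouped by role on the y axis. Red points were higher (Hspa5, Herpud1, Atf4) and blue points lower (Canx, Sec61b) at an adjusted p under 0.05, and white points were not called.

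Hspa5 (BiP), the main ATP-dependent chaperone of the ER and the protein that holds the sensors inactive, was the one chaperone called higher in MRL/lpr by edgeR. It lies on chromosome 2 from 34771970 to 34777547 (GRCm38, GENCODE M21). Its level was 4234, 4239 and 3371 CPM in MRL/lpr 1 to 3 and 2532, 2728 and 2489 CPM in MRL/mpj 1 to 3. Every MRL/lpr library was above every MRL/mpj library, and MRL/lpr 3 was the lowest of its strain. The log2 fold change was 0.61 (SE 0.09, edgeR adjusted p = 0.00131), which is 1.53-fold. Without MRL/lpr 3 it was 0.72, and the adjusted p stayed between 1.01e-07 and 0.0302 over 17 other ways of analysing the counts.

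Canx (calnexin), a membrane-bound lectin chaperone that retains glycoproteins until they are folded, was lower. It had 551.9, 553.4 and 506.1 CPM in MRL/lpr and 638.2, 624.7 and 615.5 CPM in MRL/mpj. The groups did not overlap, but the difference was small, with a log2 fold change of -0.22 (SE 0.06, edgeR adjusted p = 0.0286). The call held in 11 of 17 alternatives. It was lost when MRL/lpr 1, MRL/lpr 2 or any 1 of the MRL/mpj libraries was left out, with a highest adjusted p of 0.112.

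The other 12 chaperones and folding factors were not called, and their log2 fold changes ran from -0.23 (Pdia3) to 0.34 (Dnajb9). Dnajb9 (ERdj4), a co-chaperone of BiP and a well-known target of Xbp1, came closest on the higher side. Its level was 172.8, 172 and 130.2 CPM in MRL/lpr against 130.8, 124.2 and 119.9 CPM in MRL/mpj. MRL/lpr 3 lay within the MRL/mpj range (edgeR adjusted p = 0.0548), and without that library the log2 fold change was 0.47 (adjusted p = 0.000498). It was called higher by DESeq2 (adjusted p = 0.032) and in 5 of 17 alternatives in all. Pdia3 (ERp57), the disulfide isomerase that works with calnexin and calreticulin, had 747.4, 702.3 and 626.8 CPM against 843.2, 814.1 and 772.3 CPM. All 3 MRL/lpr libraries were below MRL/mpj, with an edgeR adjusted p of 0.0634. Pdia4, a further disulfide isomerase, had 140.8, 136.4 and 149.5 CPM against 164.2, 158.8 and 153 CPM. Its log2 fold change was -0.16 (edgeR adjusted p = 0.14), and -0.19 without MRL/lpr 3 (adjusted p = 0.0346).

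Manf, a secreted ER stress protein, and Hyou1, a large Hsp70-type chaperone of the ER, had groups that did not overlap, with log2 fold changes of 0.22 and 0.16 and edgeR adjusted p-values of 0.0793 and 0.235. Hsp90b1 (GRP94), the Hsp90 of the ER, had 990.1, 949.7 and 786.5 CPM in MRL/lpr and 982.4 to 999.3 CPM in MRL/mpj. MRL/lpr 1 and 2 were near MRL/mpj and MRL/lpr 3 was below, with a log2 fold change of -0.13 and an edgeR adjusted p of 0.358. Exons of Hsp90b1 share 10.3% of their bases with 1810014B01Rik on the opposite strand, and the counting of strand is not given in the sources used here.

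Calr (calreticulin), the soluble partner of calnexin, had 1254 to 1275 CPM in MRL/lpr and 1218 to 1276 CPM in MRL/mpj, so its groups overlapped almost completely. The disulfide isomerase Pdia6, the BiP co-chaperones Dnajb11 and Dnajc3, the ER-resident Sdf2l1 and the ER stress-induced Creld2 had log2 fold changes between -0.07 and 0.06. Of the 9 genes with an ERSE, Hspa5 was higher and Canx lower, and the other 7 were not called, with log2 fold changes from -0.13 (Hsp90b1) to 0.18 (Derl3).

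**Figure D2:**
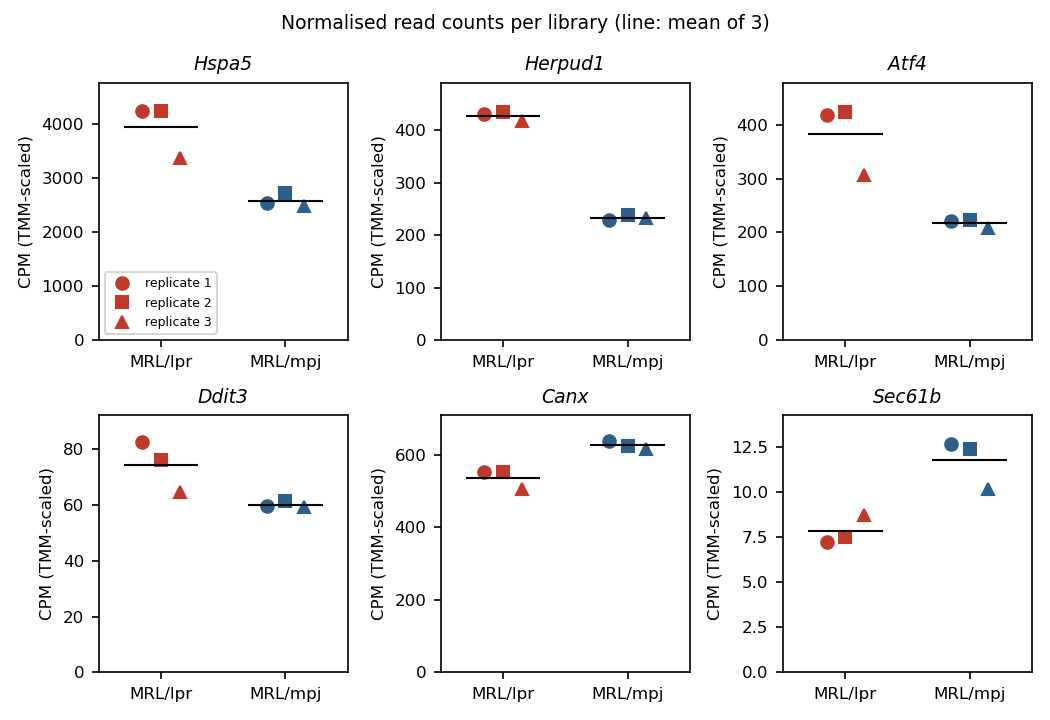
Normalised read count (CPM, y axis from 0) of 6 genes in each library, with replicates 1 to 3 as circle, square and triangle and the mean of 3 as a line. Herpud1 and Atf4 were above MRL/mpj in every MRL/lpr library, and the triangle of MRL/lpr 3 is the lowest of its strain in the panels of Hspa5, Herpud1, Atf4, Ddit3 and Canx.

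Herpud1, an ER membrane protein that assembles the degradation complex around Syvn1, had the smallest adjusted p of the 32 genes. It lies on chromosome 8 from 94386438 to 94395377. Its level was 430.3, 435.1 and 417.3 CPM in MRL/lpr and 228.7, 237.6 and 232.3 CPM in MRL/mpj. The libraries were tight within each strain and far apart between them, MRL/lpr 3 included. The log2 fold change was 0.88 (SE 0.06, edgeR adjusted p = 7.81e-06), or 1.84-fold, and it was called in 17 of 17 alternatives. Herpud1 was also the only one of the 28 genes whose promoter matched both an ERSE-II and a CARE.

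Sec61b, a subunit of the translocation channel through which new proteins enter the ER, was lower. Its counts were low, with 7.23, 7.52 and 8.76 CPM in MRL/lpr and 12.7, 12.4 and 10.2 CPM in MRL/mpj. The groups did not overlap, and MRL/lpr 3 and MRL/mpj 3 lay closest to each other. The log2 fold change was -0.59 (SE 0.15, edgeR adjusted p = 0.025). The call held in 12 of 17 alternatives and was lost without MRL/lpr 1, MRL/lpr 2, MRL/mpj 1 or MRL/mpj 2, with a highest adjusted p of 0.0982.

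The remaining 5 degradation genes were not called. Syvn1 (HRD1), the ubiquitin ligase, its partner Sel1l, the mannosidase-like Edem1 and the channel protein Derl1 had log2 fold changes of 0.10, 0.07, 0.08 and 0.01, with SEs of 0.06 to 0.09. Each had overlapping groups. Derl3, which is typical of secretory cells, had only 38 to 73 counts in any library, and its log2 fold change of 0.18 had an SE of 0.40. At this depth a difference of that size was not detectable.

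Among the sensors and Xbp1, 0 of 4 were called by edgeR and 0 by DESeq2. At an unadjusted p under 0.05 in edgeR there were 2, against 6224 of all 19554 genes. These were Eif2ak3 and Xbp1. Eif2ak3 had 73, 78.8 and 64.2 CPM in MRL/lpr and 61.6, 65.1 and 58.6 CPM in MRL/mpj, and Xbp1 had 112, 108.8 and 92 CPM against 90.2, 96.1 and 82.9 CPM. In both genes MRL/lpr 3 lay within the MRL/mpj range and the other two MRL/lpr libraries above it. Their log2 fold changes were both 0.22 (edgeR adjusted p = 0.14 for Eif2ak3 and 0.153 for Xbp1). Without MRL/lpr 3 both were 0.30, with edgeR adjusted p-values of 0.021 and 0.0187. Each was called in only that 1 of 17 alternatives. Over the alternatives the log2 fold changes went down to 0.087 and 0.089, with highest adjusted p-values of 0.592 and 0.605. Ern1 had 56.2 to 59.8 CPM against 53.2 to 55.3 CPM and Atf6 had 157.4 to 171.5 CPM against 151.7 to 167.9 CPM, with log2 fold changes of 0.09 and 0.02 (edgeR adjusted p = 0.474 and 0.875).

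Atf4, the transcription factor that drives amino acid and redox genes in the integrated stress response, was the one gene of its arm that was higher. It lies on chromosome 15 from 80255184 to 80257541. Its level was 417.3, 423.2 and 307.1 CPM in MRL/lpr and 220.6, 222.2 and 207.5 CPM in MRL/mpj. All MRL/lpr libraries were above MRL/mpj, with MRL/lpr 3 between the other two and MRL/mpj. The log2 fold change was 0.82 (SE 0.12, edgeR adjusted p = 0.00109), or 1.76-fold, and 0.96 without MRL/lpr 3. It was called in 17 of 17 alternatives.

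Ddit3 (CHOP), a transcription factor induced by Atf4 and linked to cell death under lasting stress, had 82.5, 75.9 and 64.5 CPM in MRL/lpr and 59.5, 61.3 and 59.2 CPM in MRL/mpj. The groups did not overlap, with MRL/lpr 3 nearest to MRL/mpj. Its log2 fold change was 0.31 (SE 0.10) with an edgeR adjusted p of 0.0539, just outside the threshold. It was called by DESeq2 (adjusted p = 0.0497) and without MRL/lpr 3 (log2 fold change 0.40, edgeR adjusted p = 0.00308), and in 4 of 17 alternatives in all. Exons of Ddit3 share 3.97% of their bases with Mars on the opposite strand, a methionine tRNA synthetase gene that was itself higher (log2 fold change 0.78, edgeR adjusted p = 5.47e-05). A second identifier with the symbol Ddit3 had 1 count in each library and was not used.

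Ppp1r15a (GADD34), the phosphatase subunit that reverses eIF2 phosphorylation, varied widely among libraries of one strain. It had 1021, 1635 and 967.3 CPM in MRL/lpr and 850.2, 603.8 and 879.7 CPM in MRL/mpj. The groups did not overlap, but MRL/lpr 2 was far above the other two and MRL/mpj 2 far below, so that a log2 fold change of 0.63 had an SE of 0.26 (edgeR adjusted p = 0.175).

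The genes of the Atf4 arm that carry a CARE were sparse, unlike the degradation gene Herpud1, which carries one and was higher in MRL/lpr. Chac1, an enzyme that breaks down glutathione, had 57, 66 and 90 counts in MRL/lpr and 30, 63 and 16 in MRL/mpj. Trib3, a pseudokinase, had 103, 86 and 102 counts against 59, 84 and 118, and Asns, asparagine synthetase, had 91, 88 and 94 against 113, 117 and 114. The groups of all 3 genes overlapped in CPM. Their log2 fold changes were 1.15 (SE 0.53), 0.34 (SE 0.33) and -0.15 (SE 0.25), with edgeR adjusted p-values of 0.178, 0.541 and 0.745. Atf5, a transcription factor of the same pathway, had 12.1 to 18 CPM against 12.4 to 16.2 CPM, with a log2 fold change of 0.06 (edgeR adjusted p = 0.863).

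**Figure D3:**
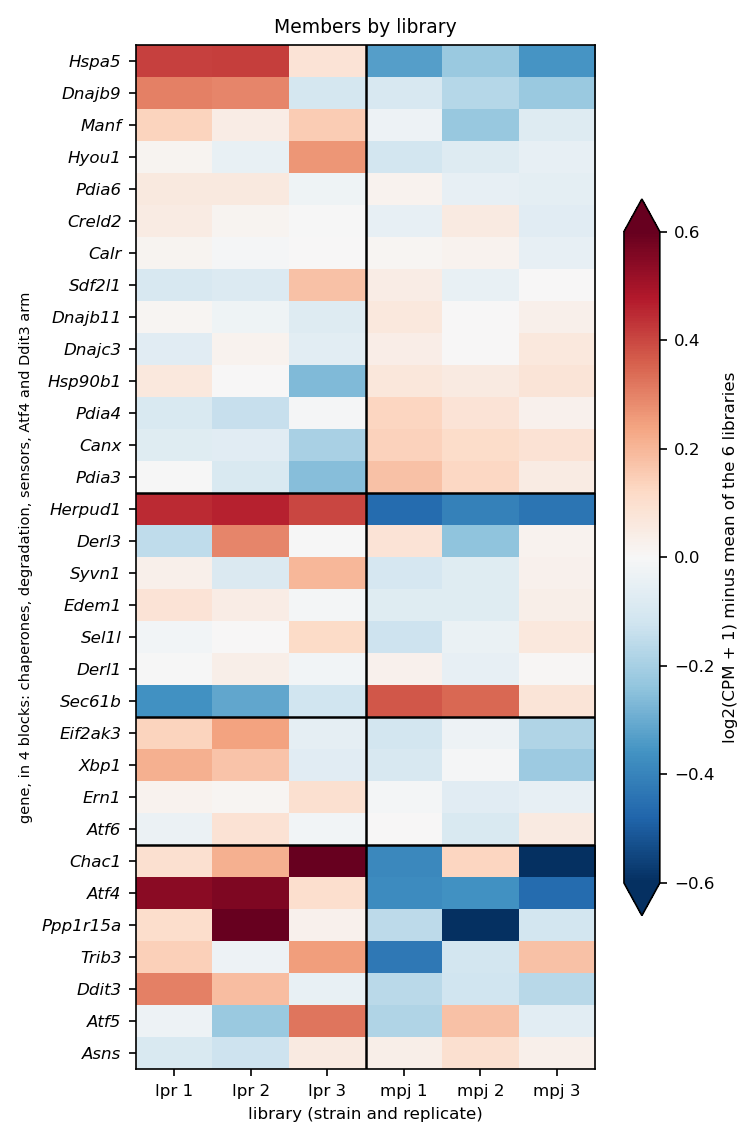
Deviation of each gene in each library, as log2(CPM + 1) minus the mean of the 6 libraries, with red above and blue below the mean, and colours ending at the limits marked on the bar. Hspa5, Herpud1 and Atf4 are red in all MRL/lpr columns and blue in all MRL/mpj columns, and the column of MRL/lpr 3 is paler in Hspa5, Dnajb9, Xbp1, Eif2ak3, Atf4 and Ddit3.

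Set side by side, the chaperones had a median log2 fold change of 0.01 (8 of 14 above 0) and the Atf4 and Ddit3 arm one of 0.34 (6 of 7 above 0). The median over all genes tested was -0.01. The degradation genes had a median of 0.08 and the sensors with Xbp1 one of 0.15. In numbers of called genes the arms did not separate, with 1 higher and 1 lower of 14 chaperones and 1 higher and 0 lower of 7 in the Atf4 arm. In the Atf4 arm, Chac1, Trib3 and Asns were sparse, with at most 118 counts in any library. The median of this arm is the value of Trib3 itself, which had an SE of 0.33 and an edgeR adjusted p of 0.541. The difference between the medians was not tested, and it was 0.33 in the main analysis and between 0.28 and 0.61 when any 1 library was left out.

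Scaling by library size alone moved the median of all genes from -0.01 to -0.13 and called 22.6% of genes. Under it the median of the chaperones was -0.12 and that of the Atf4 arm 0.21, and Hspa5, Herpud1 and Atf4 were still higher, with log2 fold changes of 0.49, 0.75 and 0.70. Under that scaling 3 chaperones were lower, namely Canx, Pdia3 and Pdia4. Without MRL/lpr 3, 21.2% of all genes were called, and of the 32 genes 7 were higher (Hspa5, Herpud1, Atf4, Ddit3, Dnajb9, Eif2ak3 and Xbp1) and 3 lower (Canx, Sec61b and Pdia4). In 16 of the 32 genes MRL/lpr 3 was the lowest MRL/lpr library, against 37.4% of all genes.

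**Figure D4:**
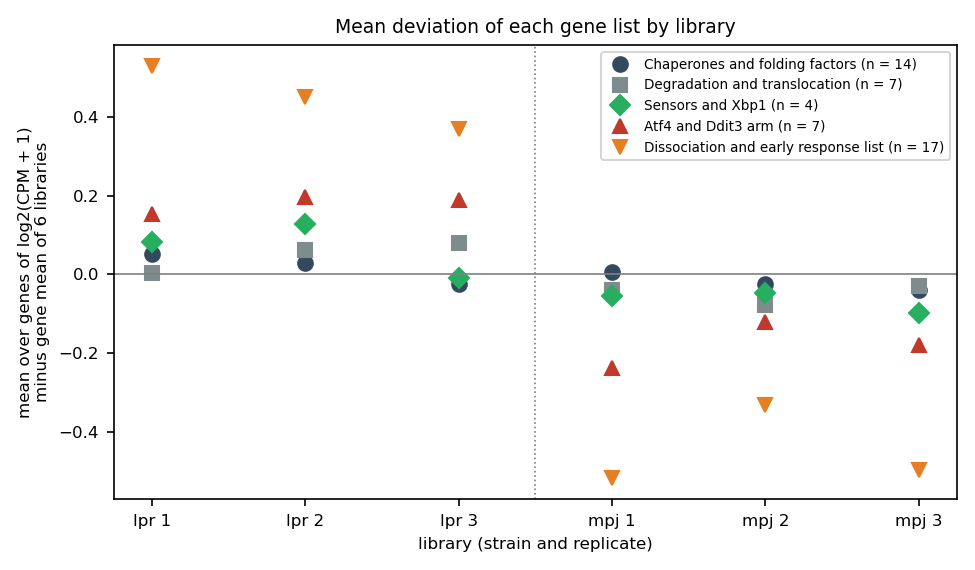
Mean deviation of each gene list in each library (y axis, mean over genes of log2(CPM + 1) minus the gene's mean of the 6 libraries). The Atf4 and Ddit3 arm lies at 0.15 to 0.20 in MRL/lpr and at -0.24 to -0.12 in MRL/mpj, the chaperones lie between -0.04 and 0.05 in all 6, and the dissociation list spreads from -0.52 to 0.53. Each gene counts equally in a mean, sparse genes such as Chac1 and Trib3 included, and 1 of the 7 genes of the Atf4 and Ddit3 arm was called.

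A list of 17 genes induced by tissue dissociation and by other early stimuli, such as Fos, Jun and Hspa1a, moved with the strains. Of these, 16 were higher in MRL/lpr and 0 lower, against 11.1% higher and 9.06% lower of all genes tested. Their median log2 fold change was 0.90. Their summed level was 51789 to 58985 CPM in MRL/lpr and 29592 to 31444 CPM in MRL/mpj. In 13 of the 17 genes MRL/lpr 3 was the lowest MRL/lpr library, against 37.4% of all genes. The part of this list in the values of Hspa5, Herpud1, Atf4 and Ppp1r15a was not tested.

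Markers of other cells also moved, and the counts below stand beside 11.1% higher and 9.06% lower of all genes tested. Of the plasma cell markers, 7 of 11 tested were higher, with a summed level of 693 to 702 CPM in MRL/lpr and 414 to 436 CPM in MRL/mpj, most of it Ighm. Jchain, which joins antibody chains, had 13.8 to 16.7 CPM against 0.807 to 1.44 CPM. Mzb1, an ER protein of antibody-secreting cells, had 0.532 to 1.15 CPM against 0 in all 3 MRL/mpj libraries, while Sdc1 and Tnfrsf17 were not called. Of the T and NK cell markers 6 of 8 were higher (19.6 to 25.1 CPM against 5.14 to 5.27 CPM in sum), and of the neutrophil and monocyte markers 4 of 9 (607 to 697 CPM against 464 to 529 CPM). Of 10 choroid plexus and ependymal markers 6 were lower, all of them choroid plexus genes such as Ttr, and the sums were 592 to 595 CPM against 1939 to 2095 CPM. The ependymal markers Foxj1, Ccdc153 and Tmem212 were not called, with log2 fold changes of -0.43, 0.33 and 0.16. Of the microglial markers 5 of 16 were lower. Cx3cr1 was not called and had 2819 CPM in MRL/lpr 2 against 226.4 and 247.3 CPM in the other two MRL/lpr libraries. Of the remaining lists, 0 of 5 B cell markers were called (2 at an unadjusted p under 0.05), 2 of 7 oligodendrocyte, 1 of 6 astrocyte and 2 of 6 neuron markers were lower, and 2 of 6 endothelial markers were higher. The part of these cells in the results for the 32 genes was not tested.

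**Figure D5:**
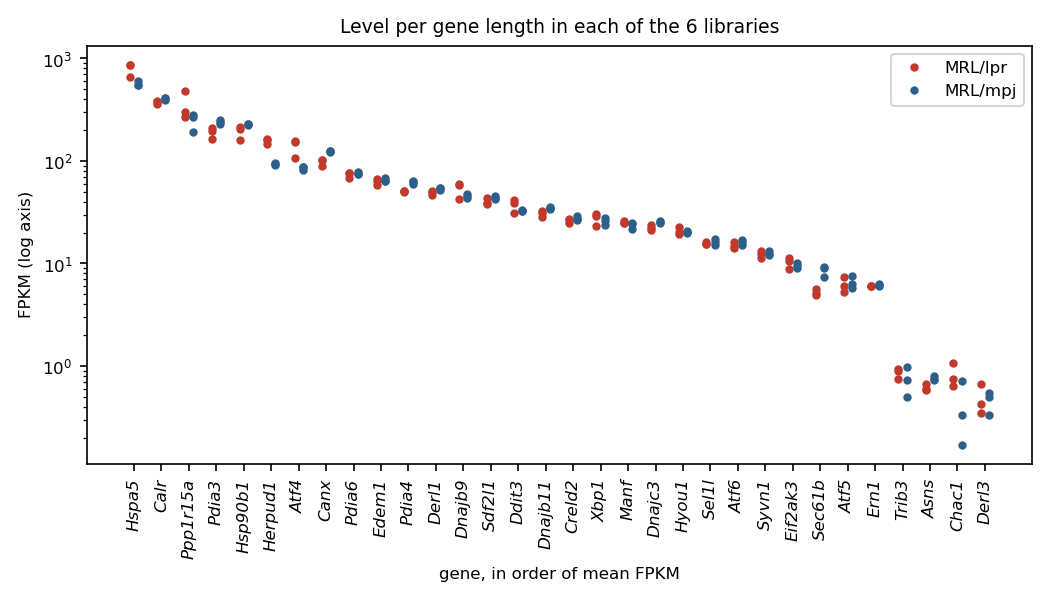
Level per gene length of the 32 genes in each library (y axis, FPKM on a log axis), in order of the mean of all 6 libraries, with MRL/lpr in red and MRL/mpj in blue. Hspa5 is the highest, and Trib3, Asns, Chac1 and Derl3 lie below 1 FPKM on average.

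Levels of different genes were compared in the deposited FPKM, which divide the fragments by gene length and library depth. Hspa5 was the most abundant of the 32 genes in both strains, with 801 ± 125 FPKM (SD, n = 3) in MRL/lpr and 568 ± 28.3 FPKM in MRL/mpj. Calr followed with 375 ± 12.9 and 405 ± 10.3 FPKM, and Ppp1r15a with 353 ± 115 and 246 ± 47.9 FPKM. In MRL/lpr, Calr and Ppp1r15a did not differ beyond their spread, whereas in MRL/mpj Calr was clearly above it. Pdia3 and Hsp90b1 were the next pair, at 189 ± 22.1 and 193 ± 28.5 FPKM in MRL/lpr and at 240 ± 10.5 and 229 ± 1.89 FPKM in MRL/mpj. Which of them was higher varied between the libraries of each strain.

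Herpud1 and Atf4 stood at 157 ± 8.2 and 139 ± 27.7 FPKM in MRL/lpr, within the spread of Atf4, and at 92.9 ± 1.85 and 85.5 ± 3.18 FPKM in MRL/mpj. Canx lay below both in MRL/lpr, at 98 ± 7.92 FPKM, and above both in MRL/mpj, at 124 ± 2.21 FPKM. Herpud1 was above Atf4 in every library of both strains, and the place of Canx changed. Ddit3 was lower than Atf4 in both strains, with 37.2 ± 5.6 and 32.6 ± 0.624 FPKM. The sensors were low, from 6.01 ± 0.0265 FPKM for Ern1 to 15.1 ± 0.982 FPKM for Atf6 in MRL/lpr, with Xbp1 at 27.5 ± 3.64 FPKM.

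Further genes of the same pathways were counted for comparison. Of 44 further ER genes, 0 were higher and 6 lower by edgeR, and 36 had a log2 fold change below 0, with a median of -0.12. The 6 are 13.6% of the list, against 20.2% of all genes called and 9.06% called lower, and 9969 of the 19554 genes tested were below 0. At an unadjusted p under 0.05 edgeR had 3 higher and 14 lower, against 3185 higher and 3039 lower of the 19554 genes. DESeq2 called 0 higher and 8 lower, which is 18.2% of the list. Its share of all genes, 14.2%, was over the larger set of every gene with a count, so it is no matched background. The largest fall was in Edem2, which trims mannose from misfolded glycoproteins, with 127.5, 129.6 and 155.2 CPM in MRL/lpr against 324.8, 321 and 307.5 CPM in MRL/mpj (log2 fold change -1.21, SE 0.08, edgeR adjusted p = 1.20e-05). The other 5 were named after their values were seen. They were Wfs1, Erlec1, Creb3l2, Ostc and Dnajc10, with log2 fold changes of -0.93, -0.69, -0.50, -0.29 and -0.28.

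Of 44 further genes of the integrated stress response, 7 were higher and 4 lower, and the median log2 fold change was 0.03. These 11 are 25% of the list, against 20.2% of all genes (11.1% higher and 9.06% lower). Phgdh, the first enzyme of serine synthesis from glycolysis, rose most, with 107.4, 106.3 and 125.6 CPM against 29.95, 30.8 and 34.8 CPM (log2 fold change 1.83, SE 0.10, edgeR adjusted p = 2.94e-06). Cebpb, a transcription factor that pairs with Atf4 and Ddit3 and acts in myeloid inflammation, had 226.7, 219.1 and 211.6 CPM against 107.7, 104.8 and 97.6 CPM (log2 fold change 1.08, SE 0.07, edgeR adjusted p = 6.64e-06). Exons of Cebpb share 20.7% of their bases with Tmem189 on the opposite strand. The other 9 were named after their values were seen. The interferon-inducible eIF2 kinase Eif2ak2 (PKR), Atf3, Mars, the amino acid carrier Slc38a2 and the phosphatase subunit Ppp1r15b were higher, with log2 fold changes from 0.91 down to 0.33. Atf3 is also on the dissociation list. Gdf15, Cebpg, Gpt2 and Nars were lower, with log2 fold changes of -0.74, -0.70, -0.64 and -0.22. Cebpg is a dimer partner of Atf4, Gdf15 a stress-induced cytokine, and Gpt2 and Nars act in alanine metabolism and asparagine tRNA charging. The remaining genes of the list were not called by edgeR, among them all 5 subunits of eIF2B, most tRNA synthetases, the serine and one-carbon enzymes Psat1, Psph, Shmt2 and Mthfd2, and the cystine carrier Slc7a11. Mthfd2 lay just outside the threshold (log2 fold change 0.59, edgeR adjusted p = 0.0503). It was called by DESeq2 (adjusted p = 0.0362) and in 7 of 17 alternatives in all.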

How the data were processed

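Microglial RNA-seq libraries of MRL/lpr and MRL/mpj mice were analysed, 3 per strain. The study's methods name Cutadapt, HISAT2 and DESeq2, and the submitters' processing notes name cutadapt 1.9.3, HISAT2 2.0.4, Cufflinks, Cuffdiff 2.2.1 and GRCm38. The counting tool and its strand setting are not given in the sources used here. The authors deposited whole-number counts per Ensembl gene, not normalised, and FPKM values per library, which they scaled by gene length and depth. Ensembl identifiers were matched to symbols for 55141 of 55401 genes.

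Genes were filtered with filterByExpr (minimum count 10) and tested with edgeR 4.0.16 (TMM, robust quasi-likelihood fit) in R 4.3.3. P-values were adjusted by the Benjamini-Hochberg method over all 19554 genes tested. The common biological coefficient of variation was 0.26. DESeq2 1.42.0, limma 3.58.1 on log2(FPKM + 0.1) and log2(FPKM + 1), other scalings, filters and left-out libraries were alternatives, of which 17 were run. A two-sided exact permutation test of 3 against 3 libraries cannot go below p = 0.1, which 12 of the 32 genes reached, so it was not used for calls.

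The 32 genes, their roles and the pathway and marker lists were chosen with earlier results of these data known. All 32 genes were named, and from the pathway lists those with an adjusted p under 0.05 and a log2 fold change of 1 or more in either direction. Coordinates and exon overlaps come from GENCODE M21, and promoters from RefSeq (GRCm38.p6). In the main test, replicate numbers were treated only as names of libraries.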

Additional observations from a re-analysis of the deposited data

How the results depend on the processing

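Herpud1, Hspa5 and Atf4 were called under all 17 alternatives, and of 35 single genes 15 kept direction and side of the threshold under every one. The number of the 32 genes called higher, 3, became 5 with genes of at least 50 counts in 3 libraries, with counts divided by 4 and with DESeq2, and 3 to 7 with 1 library left out. The number called lower, 2, became 4 with scaling by library size only and with limma on both FPKM scales, and 0 to 3 with 1 library left out. With the replicate number as a block, 0 were lower. Same-numbered libraries had correlations of -0.06, -0.03 and -0.08 of their deviations from the strain means. With 3 libraries per strain, such correlations cannot exclude that same-numbered libraries were prepared together. The block ended no call other than Canx and Sec61b. The chaperone median of 0.01 was -0.12 under library size only and on both FPKM scales. The median of the Atf4 and Ddit3 arm, 0.34, was 0.21 under library size only and 0.23 and 0.18 with limma on log2(FPKM + 0.1) and log2(FPKM + 1). It was 0.30 to 0.60 with 1 library left out, highest without MRL/mpj 3, and its difference from the chaperones was 0.28 to 0.61. Further ER genes called lower rose from 6 to 17 under library size only and to 15 on both FPKM scales, and ranged from 4 to 9 with 1 library left out. Over all 19554 genes, those called lower also rose under library size only, from 1772 to 2790. Further genes of the integrated stress response called lower rose from 4 to 7 on both FPKM scales. The FPKM values are scaled by depth only, as library size scaling is, and the causes of the other changes were not tested.

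Genes near 0 changed sign without being called. Under library size only these were Calr (-0.11), Pdia6 (-0.062), Sdf2l1 (-0.12), Creld2 (-0.082), Edem1 (-0.047), Sel1l (-0.059), Syvn1 (-0.025), Derl1 (-0.11), Ern1 (-0.036), Atf6 (-0.10) and Atf5 (-0.071). With limma on log2(FPKM + 0.1) the log2 fold changes were Calr (-0.11), Pdia6 (-0.061), Sdf2l1 (-0.12), Creld2 (-0.080), Edem1 (-0.046), Sel1l (-0.054), Syvn1 (-0.023), Derl1 (-0.11), Ern1 (-0.033), Atf6 (-0.098) and Atf5 (-0.073). On log2(FPKM + 1), where the same genes turned, Calr (-0.11), Pdia6 (-0.060), Sdf2l1 (-0.12), Creld2 (-0.077), Edem1 (-0.045), Sel1l (-0.051), Syvn1 (-0.021), Derl1 (-0.11), Ern1 (-0.029), Atf6 (-0.093) and Atf5 (-0.063) were found. Sdf2l1 was also at -0.000685 with genes of at least 1 count, at -0.0032 with the replicate block and at -0.0058 with DESeq2. With 1 library left out, Calr ranged from -0.011 to 0.021, Sdf2l1 from -0.089 to 0.052, Derl1 from -0.014 to 0.025, Derl3 from -0.078 to 0.36, Atf6 from -0.020 to 0.054 and Atf5 from -0.11 to 0.18.

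With 3 libraries per strain and at most 118 counts in Derl3, Trib3, Chac1 and Asns, differences in these 4 genes were limited by depth. The groups are whole strains that also differ in Xist, in mitochondrial share and in markers of other cells.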
